A study of Mus musculus with 5 samples.

Results

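The positions of ATRX in mouse neurons that carried TBC1D3 and were harvested at day 14 in vitro (DIV14) were set directly against those in neurons that carried mCherry and were harvested at DIV7. Each group was 1 library and 1 list of peaks from chromatin immunoprecipitation and sequencing (ChIP-seq). All peaks of both lists on chromosomes 1 to 19 and on unplaced or unlocalised scaffolds were used, which gave 195388 peaks for TBC1D3 at DIV14 and 207832 peaks for mCherry at DIV7. Together these are 403220 of the 651098 peaks in the 4 lists of the series. The mCherry library at DIV14 was not used as a baseline, so the comparison asks how the list of older neurons with TBC1D3 differs from that of young neurons. By its title the series is about a hominoid signalling axis and the pace at which synapses mature.

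Both cultures were primary neurons of C57BL6/J mice, taken from embryos of stages E15.5 to E17.5. They were kept in Neurobasal A with B27, glutamine and fetal bovine serum, and they received lentivirus on day 5 in vitro. The TBC1D3 culture was therefore harvested 9 days after the virus and the mCherry culture 2 days after it. Transgene, age in culture and time since infection differ together between the libraries and cannot be told apart. The promoter that drove the transgenes, and the number of embryos pooled, were not stated in the labels. Input DNA was the background in the labels' protocols, and the series holds 1 input sample. Whether both lists were called over it in the same way is not known. With 1 library in each group no spread between cultures is known and no test between the groups was possible. Intervals of shares are exact binomial ones at 95%, those of a difference of shares are normal approximations, and both cover counting error only.

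ATRX is a chromatin remodeller of the SNF2 family that works with the histone chaperone DAXX to deposit the histone variant H3.3. It is best known from silent chromatin, such as the repeats next to centromeres, telomeres, imprinted genes and arrays of zinc finger genes, and from G-rich repeats that can fold into quadruplexes. Mutations of ATRX cause intellectual disability, and the protein is abundant in neurons. TBC1D3 encodes a protein with a TBC domain, the domain of RAB GTPase regulators. It is found in humans and other hominoids and mice have no copy, whereas mCherry is a fluorescent protein that serves as the control transgene.

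The promoter sequences below were chosen as examples of start sites that the lists do and do not share. Each is the 250 bases before the gene's start from the RefSeq promoter table of GRCm38.p6, is wholly covered by the named peak, and has its CG dinucleotides in capitals. Dab1, the adaptor of reelin signalling, and Kctd12, an auxiliary subunit of GABA-B receptors, were covered in both lists. Pum2, a repressor of translation, and Eno1, a glycolytic enolase, were covered with TBC1D3 only. Slc44a1, a choline transporter, and the odorant receptor gene Olfr1339 were covered at DIV7 only. Wholly covered promoters numbered 35 in both lists, 255 with TBC1D3 only and 268 at DIV7 only.
Dab1, chr4:104367288-104367537, plus strand: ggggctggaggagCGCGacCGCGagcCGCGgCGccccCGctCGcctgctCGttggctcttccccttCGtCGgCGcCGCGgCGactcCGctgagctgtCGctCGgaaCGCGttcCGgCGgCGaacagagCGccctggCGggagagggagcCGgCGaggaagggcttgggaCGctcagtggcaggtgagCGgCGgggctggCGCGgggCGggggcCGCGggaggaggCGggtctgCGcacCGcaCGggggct
Kctd12, chr14:102982638-102982887, minus strand: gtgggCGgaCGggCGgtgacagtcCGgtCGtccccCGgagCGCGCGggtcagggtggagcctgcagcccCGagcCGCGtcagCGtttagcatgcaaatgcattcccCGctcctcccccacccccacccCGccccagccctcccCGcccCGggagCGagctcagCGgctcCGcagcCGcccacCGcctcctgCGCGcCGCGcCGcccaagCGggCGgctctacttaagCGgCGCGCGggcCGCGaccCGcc
Pum2, chr12:8674431-8674680, plus strand: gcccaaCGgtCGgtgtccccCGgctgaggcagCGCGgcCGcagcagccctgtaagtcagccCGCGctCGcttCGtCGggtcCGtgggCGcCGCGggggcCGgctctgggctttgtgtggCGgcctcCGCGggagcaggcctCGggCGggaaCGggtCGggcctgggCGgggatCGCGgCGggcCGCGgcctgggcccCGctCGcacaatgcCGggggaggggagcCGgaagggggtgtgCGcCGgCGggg
Eno1, chr4:150236947-150237196, plus strand: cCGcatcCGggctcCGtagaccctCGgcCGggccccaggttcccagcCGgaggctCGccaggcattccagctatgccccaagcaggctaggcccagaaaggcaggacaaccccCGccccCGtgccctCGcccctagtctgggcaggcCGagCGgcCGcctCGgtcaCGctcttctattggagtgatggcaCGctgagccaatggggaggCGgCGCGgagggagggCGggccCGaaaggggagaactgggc
Slc44a1, chr4:53440163-53440412, plus strand: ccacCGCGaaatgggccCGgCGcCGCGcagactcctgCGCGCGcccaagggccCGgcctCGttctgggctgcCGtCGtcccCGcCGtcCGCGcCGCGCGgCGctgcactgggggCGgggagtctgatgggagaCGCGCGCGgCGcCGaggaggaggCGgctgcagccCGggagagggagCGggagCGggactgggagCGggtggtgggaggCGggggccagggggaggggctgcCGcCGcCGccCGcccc
Olfr1339, chr4:118734281-118734530, plus strand: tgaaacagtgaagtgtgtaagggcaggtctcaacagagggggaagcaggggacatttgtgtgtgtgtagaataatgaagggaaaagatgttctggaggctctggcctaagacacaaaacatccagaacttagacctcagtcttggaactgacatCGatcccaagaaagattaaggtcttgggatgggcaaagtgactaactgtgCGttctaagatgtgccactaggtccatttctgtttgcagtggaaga
Dab1 has 40 CG dinucleotides in these bases, Kctd12 36, Pum2 36, Eno1 21, Slc44a1 38 and Olfr1339 2. The fold given for a peak throughout is the authors' own ratio of pileup to local background. It was 3.17 with TBC1D3 and 2.82 at DIV7 for Dab1, and 3.16 with TBC1D3 and 3.58 at DIV7 for Kctd12. Pum2 had a peak of 4.06-fold and Eno1 a peak of 3.90-fold in the TBC1D3 list. In the DIV7 list the peak of Slc44a1 reached 3.58-fold and that of Olfr1339 2.63-fold. The first 5 sequences are dense in CG and are found in every class of sharing, and the odorant receptor promoter is poor in CG. Other covered promoters of 1 list only had fewer CG dinucleotides than these 5, such as Zfp982 with TBC1D3 only (11) and Slc17a5 at DIV7 only (14).

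Both lists are dense and weak. They reach an uncorrected p of 0.05, and 376 TBC1D3 peaks (0.192%) and 476 DIV7 peaks (0.229%) had a q of at most 0.05. The median fold was 2.26 with TBC1D3 and 2.19 at DIV7. The pileup at the summit was recovered from the fold and the p of each peak, and 90.1% of TBC1D3 peaks and 87.3% of DIV7 peaks rested on 3 to 5 fragments. Depth was alike as far as the peaks show it, with a background of 1.22 fragments for TBC1D3 and 1.28 for DIV7, and the shortest peaks were 227 bp and 230 bp. Peaks covered 3.02% of the autosomal range with TBC1D3 and 3.26% at DIV7. The ratio of autosomal peak numbers, TBC1D3 over DIV7, was 0.941, and that of the backgrounds was 0.948.

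Few peaks were found in both lists. A DIV7 peak overlapped 18381 TBC1D3 peaks by at least 1 bp, or 9.41% (9.28 to 9.54), and a TBC1D3 peak overlapped 18433 DIV7 peaks, or 8.87% (8.75 to 8.99). This left 177007 peaks in the TBC1D3 list only and 189399 in the DIV7 list only. Of the summits, 5.37% of those with TBC1D3 lay inside a DIV7 peak, where DIV7 peaks cover 3.26% of the bases. Of DIV7 summits, 4.99% lay inside a TBC1D3 peak, and TBC1D3 peaks cover 3.02%. Shared peaks were somewhat longer than the rest, with a median of 354 bp against 322 bp in the TBC1D3 list and 365 bp against 327 bp in the DIV7 list.

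Sharing was more frequent at higher pileups in both lists. At a pileup of 3 fragments, 7.52% of TBC1D3 peaks and 6.97% of DIV7 peaks were shared. The share was 11.9% of TBC1D3 peaks and 10.9% of DIV7 peaks at 6 fragments, and 22.0% and 18.2% of them at 8 fragments. At 9 or more fragments it was 48.0% for TBC1D3 (44.3 to 51.8) and 46.7% for DIV7 (43.7 to 49.7). Of the peaks with a q of at most 0.05, 242 TBC1D3 peaks (64.4%) and 273 DIV7 peaks (57.4%) met any peak of the other list. Scaffolds were the extreme: there 85.0% of such TBC1D3 peaks and 94.5% of such DIV7 peaks were shared, while on the autosomes it was 58.8% and 48.6%. A weak peak found in 1 list only is thus the usual case at this depth, and its absence from the other list does not show that ATRX was missing there.

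**Figure D1:**
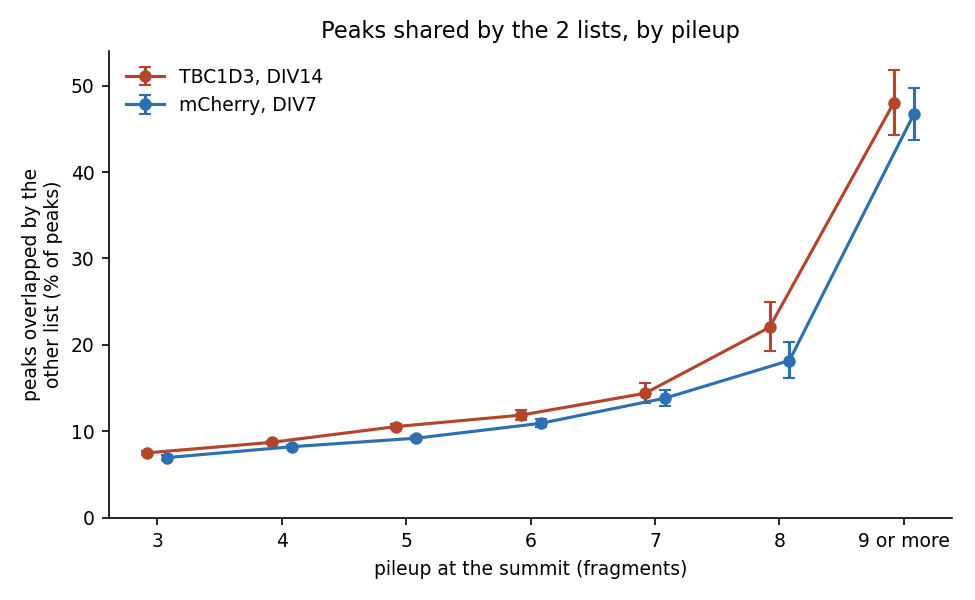
Share of peaks overlapped by a peak of the other list (vertical axis, percent of peaks) by pileup at the summit (horizontal axis, fragments), for TBC1D3 at DIV14 and mCherry at DIV7, with exact 95% binomial intervals. Both shares lie near 7% at 3 fragments and near 47% at 9 or more, with TBC1D3 slightly above DIV7 in every class.

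Along the chromosomes the TBC1D3 list was weighted towards the distal ends. The DIV7 list held more near the centromeres only when set against TBC1D3, as the intervals of its own first and last segments overlap. Mouse autosomes have the centromere at the start of the sequence, so each was divided into 10 equal segments from that end. The segment next to the centromere held 9.76% of TBC1D3 summits (9.63 to 9.90) and 10.4% of DIV7 summits (10.3 to 10.6). The last segment held 11.2% of TBC1D3 summits (11.0 to 11.3) and 10.4% of DIV7 summits (10.2 to 10.5). The last 5 Mb, with 3.95% of the bases, held 4.25% of TBC1D3 and 3.86% of DIV7 summits. The TBC1D3 share was the higher one on 18 of 19 chromosomes. In the first 5 Mb, also 3.95% of the bases, the shares were 3.77% with TBC1D3 and 4.10% at DIV7. The DIV7 share was higher on 15 of 19 chromosomes. At 2 Mb the same order was seen, with the TBC1D3 share higher on 14 of 19 distal ends and the DIV7 share higher on 14 of 19 proximal ones.

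**Figure D2:**
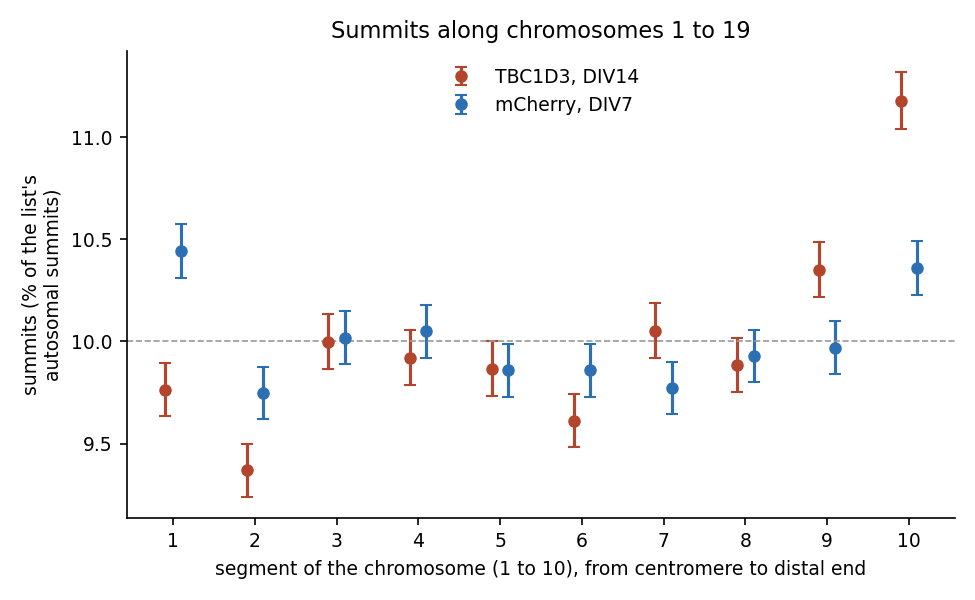
Share of autosomal summits of each list (vertical axis, percent) in 10 equal segments of the chromosome from the centromere to the distal end (horizontal axis), for TBC1D3 at DIV14 and mCherry at DIV7 with exact 95% binomial intervals. The dashed line marks an even share and the axis does not start at 0. TBC1D3 is lower in the segment next to the centromere (9.76% against 10.4%) and higher in the last segment (11.2% against 10.4%).

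Peak density per chromosome, not scaled for the overall ratio of 0.941, was lower with TBC1D3 on 18 of 19 autosomes. Chromosome 11 was the exception, with 81.7 peaks per Mb with TBC1D3 and 79.5 at DIV7. The widest gap was on chromosome 7, with 66.8 peaks per Mb with TBC1D3 and 78.3 at DIV7, a ratio of 0.853. Much of that gap lay in a small part of the chromosome, described next.

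In windows of 1 Mb a set of gene family clusters held peaks at DIV7 and few with TBC1D3. Over 2413 windows the peak counts of both lists went together (Pearson r 0.688, Spearman rho 0.651). The 2 libraries may share the input of the series. The median was 81 peaks with TBC1D3 and 86 at DIV7. In 55 windows the DIV7 list had at least 2 times the peaks of the TBC1D3 list and at least 20 peaks, and no window had the reverse. These windows held 1093 TBC1D3 peaks and 3393 DIV7 peaks. Chromosome 7 had 23 of them, with 426 TBC1D3 peaks and 1409 DIV7 peaks, chromosome 12 had 8 and chromosome 17 had 5. Without them the ratio of TBC1D3 to DIV7 peaks was 0.933 on chromosome 7 and 0.951 over all autosomes. The gap next to the centromere stood without them, with 9.73% of TBC1D3 and 10.4% of DIV7 summits in the first segment and 11.2% and 10.5% in the last, while in the segment after the first the shares came to 9.23% and 9.30%, against 9.37% and 9.75% with them.

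Those 55 windows hold 689 protein-coding genes, most of them in tandem families. There were 122 Vmn1r and 65 Vmn2r genes, which encode the pheromone receptors of the vomeronasal organ, 82 Olfr odorant receptor genes and 29 Defa genes, the alpha-defensins of intestinal Paneth cells. Another 23 Scgb secretoglobin genes, 22 Tas taste receptor genes, 18 Pramel genes and 13 Psg pregnancy glycoprotein genes lay there. The Vmn1r arrays of chromosome 7 at 20 to 21 Mb and at 22 to 23 Mb had 25 and 35 TBC1D3 peaks, against 116 and 126 DIV7 peaks. On chromosome 12 the window from 23 to 24 Mb, with 3 predicted genes, held 21 TBC1D3 and 113 DIV7 peaks, and that from 18 to 19 Mb held 28 TBC1D3 and 92 DIV7 peaks. The window from 42 to 43 Mb of chromosome 14, with 10 predicted genes, held 26 TBC1D3 and 97 DIV7 peaks. Further clusters, picked after their values were seen, were the Scgb array of chromosome 7 at 33 to 34 Mb (5 TBC1D3 and 62 DIV7 peaks), the Defa and Defb array of chromosome 8 at 21 to 22 Mb (25 and 68) and the Esp exocrine peptide array of chromosome 17 at 39 to 40 Mb (6 and 44).

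The DIV7 peaks of these windows were weak. A TBC1D3 peak overlapped 2.59% of them, against 8.92% of DIV7 peaks in all other windows. The windows were chosen for having few TBC1D3 peaks beside many DIV7 peaks, so this low share follows from the choice. Of the TBC1D3 peaks in these windows 8.14% were shared, and 9.38% elsewhere. A pileup of 3 to 5 fragments was found for 93.1% of the TBC1D3 and 90.2% of the DIV7 peaks there, and 1 TBC1D3 peak and 7 DIV7 peaks had a q of at most 0.05. Base composition moved with the pattern: the promoters in these windows had a median GC content of 40% and a median of 2 CG dinucleotides in 300 bases, against 57.3% and 14 in the other windows. Across all windows with a promoter, the ratio of TBC1D3 to DIV7 peaks was 0.842 in the lowest of 5 classes of promoter GC and 0.930, 0.984, 0.990 and 0.990 in the classes above it. The part of base composition, and of how reads of near-identical copies were placed, in these differences was not tested.

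Windows in which the TBC1D3 list had the higher count differed less in ratio. The largest gap was on chromosome 4 from 147 to 148 Mb, with 204 TBC1D3 peaks and 122 DIV7 peaks, where 9 Zfp genes, coding for zinc finger proteins, lie. Chromosome 11 from 114 to 115 Mb, which holds Cd300 immune receptor genes, had 159 TBC1D3 and 113 DIV7 peaks. The window of 9 Oas genes, antiviral oligoadenylate synthetases, on chromosome 5 from 120 to 121 Mb had 116 TBC1D3 and 68 DIV7 peaks. On chromosome 14 from 69 to 70 Mb, with a pair of Nkx homeobox genes, there were 129 TBC1D3 and 82 DIV7 peaks. The Apoa apolipoprotein cluster of chromosome 9 from 46 to 47 Mb had 127 TBC1D3 and 81 DIV7 peaks. Windows with over 40 genes had a ratio of TBC1D3 to DIV7 peaks of 1.02 and windows with no gene one of 0.863.

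**Figure D3:**
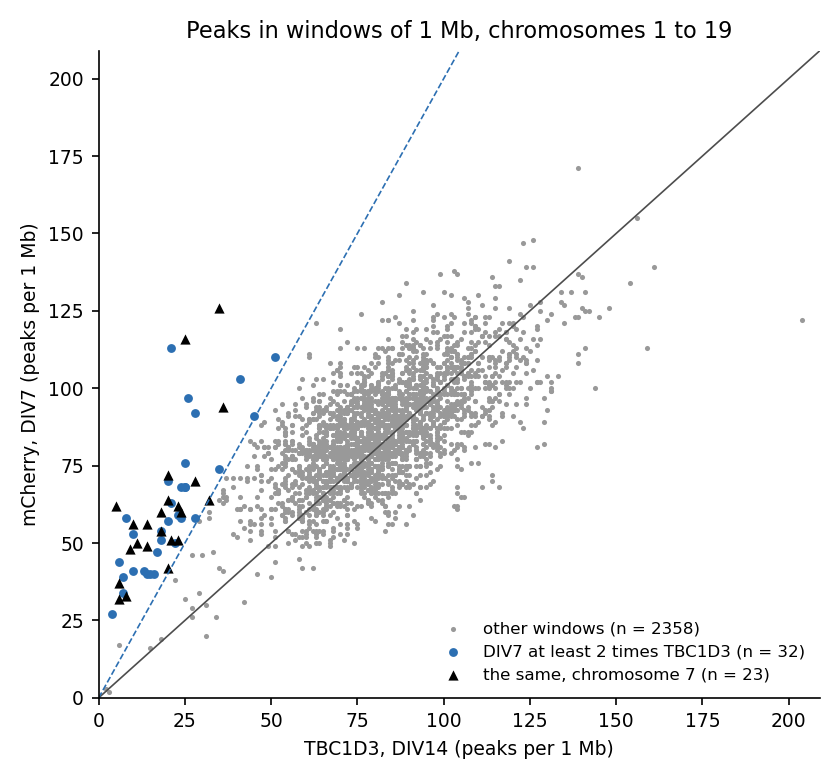
Peaks per 1 Mb window of chromosomes 1 to 19 in the TBC1D3 list at DIV14 (horizontal axis) and the mCherry list at DIV7 (vertical axis), 1 point a window; the 55 windows with at least 2 times as many DIV7 peaks are marked. The solid line marks equal counts and the dashed line 2 times as many at DIV7; 23 of the marked windows are on chromosome 7, and no window has 2 times as many TBC1D3 peaks.

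By gene class the lists differed by less than 1 percentage point in every class. Summits within 1 kb of either end of a protein-coding gene, a class that holds 3.10% of the bases, made up 4.07% of the TBC1D3 list (3.99 to 4.16) and 3.76% of the DIV7 list (3.68 to 3.84). The difference, TBC1D3 minus DIV7, was 0.315 points (0.195 to 0.435). The rest of the span of genes under 300 kb held 24.6% of TBC1D3 and 23.7% of DIV7 summits, and that of longer genes 13.5% and 13.2%. Gene deserts, 500 kb or more from any protein-coding gene, held 7.39% of TBC1D3 summits and 8.19% of DIV7 summits, for 8.41% of the bases. Set against each other, TBC1D3 summits were thus weighted slightly towards genes and DIV7 summits towards deserts, though both lists were under the desert share of bases. Among autosomal peaks with a q of at most 0.05 the order turned. Gene ends then held 10.1% of 296 TBC1D3 and 11.7% of 385 DIV7 summits, and deserts 6.42% and 3.90%.

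Among the autosomal gene classes, gene ends had the highest share of peaks found in both lists. Among shared peaks 7.40% of TBC1D3 and 7.30% of DIV7 summits lay at gene ends, against 3.73% and 3.42% of the peaks found in 1 list only. Of all gene-end peaks 17.0% with TBC1D3 and 17.1% at DIV7 were shared. In deserts the shared peaks were alike, at 7.48% with TBC1D3 and 7.46% at DIV7, and the peaks of 1 list only made the gap, with 7.38% for TBC1D3 and 8.26% for DIV7.

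A gene-end summit was found at 7176 of 20661 protein-coding genes with TBC1D3 (34.7%) and at 7095 at DIV7 (34.3%). Both lists had one at 2936 genes (14.2%), the TBC1D3 list alone at 4240 (20.5%) and the DIV7 list alone at 4159 (20.1%). Of the genes with both, 695 had summits within 250 bp of each other. The genes of 1 list only shrink when a wider zone is asked for, since 2286 of the TBC1D3 genes and 2357 of the DIV7 genes had no summit of the other list within 3 kb of either end. Among genes of 300 kb or more, which include many adhesion and synapse genes, 52.8% had a summit with TBC1D3 and 48.7% at DIV7. Among genes under 5 kb it was 27.1% with TBC1D3 and 27.7% at DIV7.

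Starts of genes were marked more often than ends. For 10268 genes of at least 5 kb with a single annotated start in the promoter table, the 5′ end had a summit within 1 kb in 27.2% of cases with TBC1D3 and 26.2% at DIV7. The 3′ end had one in 13.3% of cases with TBC1D3 and 12.5% at DIV7. Both lists had a summit at 9.58% of the 5′ ends and at 2.17% of the 3′ ends, so that sharing at the ends of these genes was mostly sharing at starts.

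Promoters were held more often the richer they were in CG, in both lists. Of 20084 promoters, 5336 had a TBC1D3 summit within 1 kb (26.6%) and 5329 a DIV7 summit (26.5%). Promoters in both lists, such as those of Dab1 and Kctd12 printed above, numbered 1871 and had a median of 23 CG dinucleotides in 300 bases and 65.0% GC. Those with TBC1D3 only, Pum2 and Eno1 among them, had a median of 18 CG dinucleotides, and those at DIV7 only, Slc44a1 and Olfr1339 among them, one of 17. Promoters in neither list had a median of 9. With over 20 CG dinucleotides, 37.2% of promoters had a summit with TBC1D3 and 36.4% at DIV7, and with 11 to 20 it was 28.9% and 28.0%.

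The lists parted at promoters with the fewest CG dinucleotides. With 0 to 2 of them, 11.2% of 3519 promoters had a TBC1D3 summit (10.17 to 12.28) and 14.3% a DIV7 summit (13.13 to 15.46). Receptor genes of the Olfr, Vmn1r and Vmn2r families make up most of that gap, with 64 of the 394 TBC1D3 promoters and 129 of the 502 DIV7 promoters. Their 1068 promoters of this kind had a summit in 5.99% of cases with TBC1D3 (4.65 to 7.59) and 12.1% at DIV7 (10.2 to 14.2). The other 2451 promoters with 0 to 2 CG dinucleotides had one in 13.5% of cases with TBC1D3 (12.1 to 14.9) and 15.2% at DIV7 (13.8 to 16.7), intervals that overlap.

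Short motifs in the promoters, searched on both strands, followed the same classes. A run of GGGGGG was in 28.3% of the promoters of both lists, in 23.1% of those with TBC1D3 only, in 22.8% of those at DIV7 only and in 19.5% of all promoters. The sequence GCGCGC was in 32.9% of promoters of both lists, 22.6% of those with TBC1D3 only, 21.8% of those at DIV7 only and 18.5% of all. The telomere repeat TTAGGG was in 9.30% of promoters of both lists, 10.7% of those with TBC1D3 only, 10.2% of those at DIV7 only and 10.5% of all. G runs and CG-rich sequence were thus more frequent in promoters of both lists, which also have more G and C, and each of the 9 motifs searched differed by less than 2 points between promoters with TBC1D3 only and those at DIV7 only. Each such match describes the letters and no binding site.

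Gene lists were counted by members with a gene-end summit, to be read against 34.7% of all genes with TBC1D3 and 34.3% at DIV7. Receptors of smell and pheromones, silent in most brain neurons, were the 1 list of 26 in which the intervals of both shares lay apart. They had a summit at 155 of 1452 genes with TBC1D3 (10.7%, 9.13 to 12.4) and at 238 at DIV7 (16.4%, 14.5 to 18.4), both under the share of all genes. By family, and with 4 more genes whose symbols carry a suffix, Vmn1r genes had 12 of 230 with TBC1D3 and 39 at DIV7, Vmn2r genes 12 of 122 and 19, and Olfr genes 131 of 1104 and 181. The 55 windows above were chosen by their counts, but the receptors outside them showed the same order: of 1187 such genes of the 3 families, 12.4% had a summit with TBC1D3 (10.6 to 14.4) and 17.1% at DIV7 (15.0 to 19.4). Among the strongest were Olfr279 (3.60-fold) and Vmn2r129 (3.57-fold) with TBC1D3 only, and Olfr1392 (3.94-fold) and Olfr213 (3.50-fold) at DIV7 only.

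Other tandem families, chosen after their values were seen, differed in both directions. Defa genes had a summit at 0 of 28 genes with TBC1D3 and at 7 at DIV7, and the Obox homeobox genes of the egg had 0 of 6 with TBC1D3 and 4 at DIV7. The Mup genes, coding for major urinary proteins, had 5 of 22 with TBC1D3 and 10 at DIV7. Ugt1a genes, which share their last exons and encode glucuronosyltransferases, had 7 of 9 with TBC1D3, from 3 peaks, and 0 at DIV7. Krtap genes, for keratin-associated proteins of hair, had 19 of 56 with TBC1D3 and 12 at DIV7. Zfp genes, which ATRX is known to bind, were near the background, with 127 of 386 with TBC1D3 and 141 at DIV7, 56 of them in both. Neighbouring copies lie close together, so such counts are not independent.

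Of the gene lists of the synapse, only postsynaptic genes had intervals above the share of all genes (48.1 to 75.9% with TBC1D3, 40.3 to 68.9% at DIV7). Outside the synapse, the lists of voltage-gated channels and of developmental factors and Wnt genes had such intervals too. The gene lists were not matched for gene length. Of all genes of 300 kb or more, 52.8% had a summit with TBC1D3 and 48.7% at DIV7. Gaps between the peak lists were of a few genes. Postsynaptic genes of glutamate synapses had a summit at 32 of 51 with TBC1D3 and 28 at DIV7, 20 in both, and within 3 kb at 42 in each list. Shank2, a scaffold of the postsynaptic density, had 3.61-fold with TBC1D3 and 2.82-fold at DIV7, and Grin2a, an NMDA receptor subunit, 2.71-fold and 3.04-fold. Grin3a, a further NMDA receptor subunit, had a peak with TBC1D3 only (3.18-fold), and the AMPA receptor subunit Gria4 and the metabotropic receptor Grm8 had one at DIV7 only (3.50-fold each). Presynaptic release genes had 23 of 55 with TBC1D3 (28.7 to 55.9%) and 21 at DIV7 (25.4 to 52.3%), intervals that include the share of all genes. Both lists had a summit at 8 of them, or 14.5%, against 14.2% of all genes. Complexins show how members of a family split: Cplx1 was in both lists (3.61-fold with TBC1D3 and 2.63-fold at DIV7), and Cplx2 was at DIV7 only (3.07-fold). Nsf, the ATPase that takes SNARE complexes apart, had 3.48-fold with TBC1D3 only, and Vamp2, the SNARE of synaptic vesicles, 2.75-fold at DIV7 only.

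Inhibitory synapse genes had 13 of 26 with TBC1D3 (29.9 to 70.1%) and 14 at DIV7 (33.4 to 73.4%), 9 in both. These intervals include the share of all genes. Within 3 kb 17 had a summit with TBC1D3 and 22 at DIV7. Gabbr2, a GABA-B receptor subunit, was in both lists, with 2.71-fold with TBC1D3 and 2.34-fold at DIV7. Slc32a1, the vesicular GABA transporter, had 3.50-fold and Gad2, which makes GABA, 2.63-fold at DIV7 only. Voltage-gated channel genes had 34 of 51 with TBC1D3 and 26 at DIV7, 20 in both, a gap of 8 genes. The calcium channel subunits Cacnb2 and Cacnb4 were in both lists, each with 3.17-fold with TBC1D3 and with 2.64-fold and 2.63-fold at DIV7. The sodium channel Scn3a had 2.71-fold with TBC1D3 only.

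Genes of growing neurites had close counts within 1 kb of their ends. Within 3 kb more of them had a DIV7 summit, an order also seen among all genes. Of all 20661 genes, 4111 then had a TBC1D3 summit only, 4380 a DIV7 summit only and 8246 both. At a −log10 p of at least 3 the gap was 3 axon guidance genes and 1 growth cone gene, towards TBC1D3. Growth cone and immature neuron genes had 15 of 33 in each list, 10 of them in both, and within 3 kb 23 with TBC1D3 and 30 at DIV7. Axon guidance genes had 20 of 41 with TBC1D3 and 18 at DIV7, and 32 and 34 within 3 kb. Sema6d, a semaphorin, carried one of the strongest gene-end peaks with TBC1D3 only, of 4.95-fold on 10 fragments, and Unc5d, a netrin receptor, had 3.61-fold. Slit3, a guidance cue for Robo receptors, had 3.44-fold and Dcc, another netrin receptor, 2.63-fold at DIV7 only. Gap43, a protein of growth cones, had 3.16-fold with TBC1D3 only, and Tubb2b, a tubulin of young neurons, 2.42-fold at DIV7 only. Sox4 was in both, with 2.58-fold with TBC1D3 and 3.94-fold at DIV7. Neuronal adhesion genes had 25 of 48 with TBC1D3 and 20 at DIV7, an order that turned to 39 and 42 within 3 kb, with Negr1 (3.18-fold, TBC1D3 only) and Cdh12 (3.18-fold, DIV7 only) at the head of each side.

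Clustered protocadherins, which give neurons their surface identity and lie in 1 array on chromosome 18, had the widest gap of the neuronal lists. A summit lay at 25 of 57 genes with TBC1D3 (43.9%, 30.7 to 57.6) and 40 at DIV7 (70.2%, 56.6 to 81.6), and 18 had both. The intervals overlap by about 1 point. Pcdhgc3 had 4.51-fold with TBC1D3 and 2.77-fold at DIV7, Pcdhb10 3.60-fold with TBC1D3 only, and Pcdhb12 and Pcdhga10 3.94-fold each at DIV7 only. The genes of the array stand close together, and the summits came from 25 peaks with TBC1D3 and 35 at DIV7.

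Genes that respond to activity and genes of chromatin had close counts in both lists. Immediate early genes had 20 of 38 with TBC1D3 and 19 at DIV7, 14 in both, which is 36.8% of the list against 14.2% of all genes. Egr1 had 3.29-fold with TBC1D3 and 3.50-fold at DIV7, and the phosphatase gene Dusp6 3.99-fold and 3.07-fold. Chromatin genes and partners of ATRX had 23 of 59 with TBC1D3 and 20 at DIV7. H3f3a, 1 of the genes of histone H3.3, had 3.08-fold and the H3.3 chaperone Hira 2.67-fold with TBC1D3 only, and the chaperone Asf1a had 2.45-fold at DIV7 only. Imprinted genes, known ATRX sites, had 21 of 44 with TBC1D3 and 19 at DIV7. Dlk1 and Dio3, of the same imprinted region of chromosome 12, were in both lists (3.61-fold and 3.11-fold with TBC1D3, 3.07-fold and 2.56-fold at DIV7). At the end of Peg3 that faces its neighbour Usp29, both imprinted genes of chromosome 7, 1 peak of 3.07-fold was found at DIV7 only.

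Clustered histone genes had 27 of 65 with TBC1D3 and 17 at DIV7, and ribosomal protein genes 34 of 79 and 24, the largest gaps towards TBC1D3. At a −log10 p of at least 3 the gap was 3 genes for histones and -1 for ribosomal proteins. The histone counts come from 17 peaks with TBC1D3 and 15 peaks at DIV7, since 1 peak can serve several genes, and their intervals overlap (29.4 to 54.4 with TBC1D3 and 16.0 to 38.5 at DIV7). Oxidative phosphorylation genes had 33 of 92 with TBC1D3 and 34 at DIV7, near the background. Developmental transcription factors and Wnt genes had 62 of 125 with TBC1D3 and 57 at DIV7, and Hox genes 16 of 39 and 14. Genes of MICAL proteins, RAB GTPases and actin regulators, RAB GTPases being what TBC domains act on, had 9 of 32 with TBC1D3 and 13 at DIV7, with Rab8b and Rab11a in both. Rab10 had 4.06-fold with TBC1D3 only. Interferon genes had 5 of 22 with TBC1D3 and 8 at DIV7.

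Peaks at marker genes are not expression, so the labelled cell type cannot be checked from them. Of 5 neuron markers Map2 had a summit in both lists (3.42-fold with TBC1D3, 2.19-fold at DIV7), Syt1 and Rbfox3 at DIV7 only, and Tubb3 and Snap25 in neither. Astrocyte markers had a summit at 6 of 20 genes with TBC1D3 and 9 at DIV7, oligodendrocyte markers at 9 of 19 and 5, and microglia markers at 6 of 19 and 7. Fibroblast and endothelium markers had 8 of 20 with TBC1D3 and 11 at DIV7, and progenitor markers 9 of 20 and 11. How far the make-up of the cultures differed was not tested.

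**Figure D4:**
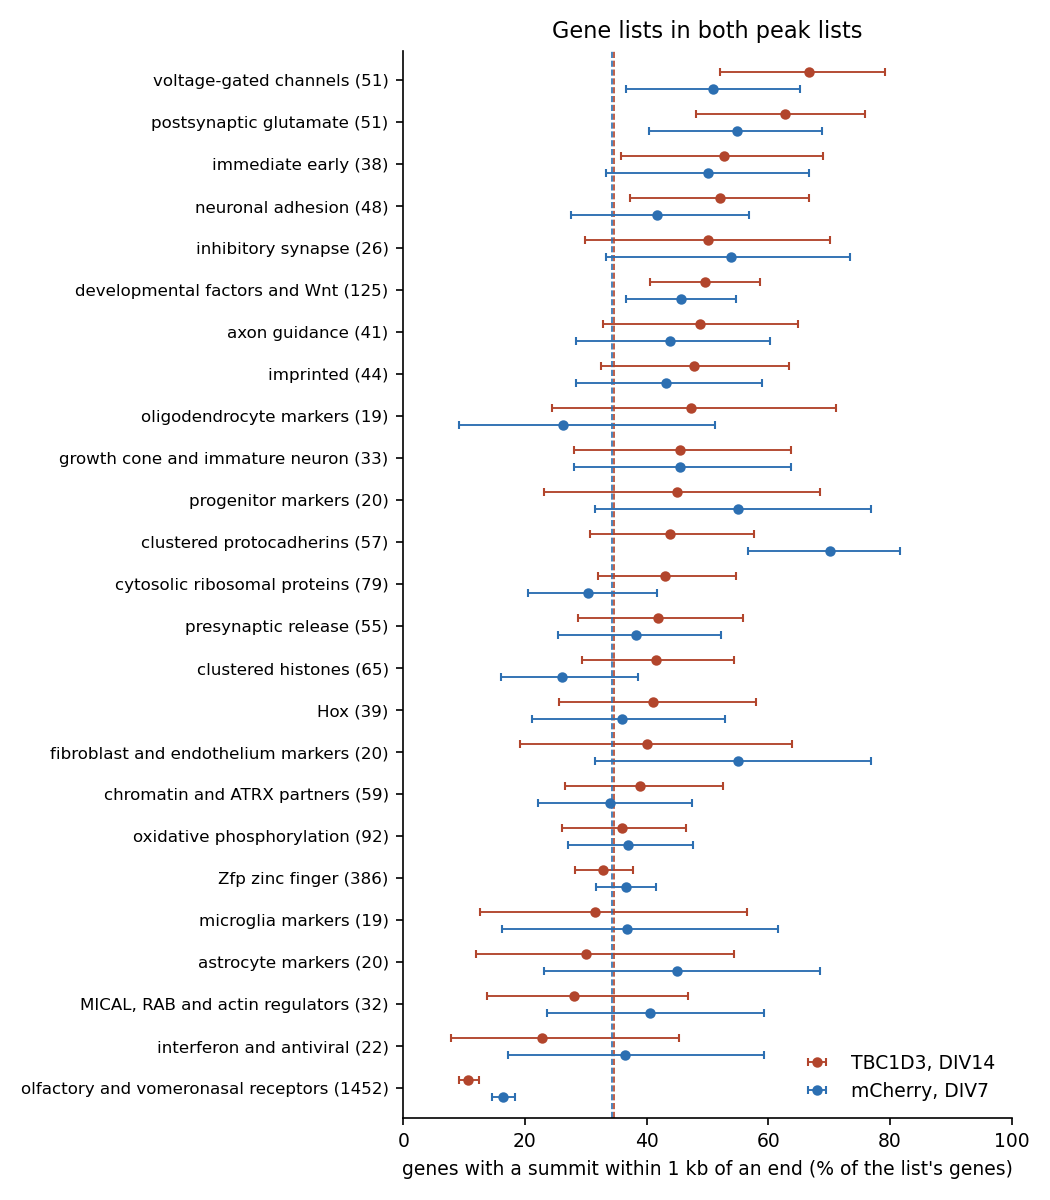
Share of the genes of each list, the 5 neuron markers left out, with a summit within 1 kb of an end (horizontal axis, percent) in the TBC1D3 list at DIV14 and the mCherry list at DIV7, with exact 95% binomial intervals. Numbers of genes stand in brackets, and dashed lines mark the shares of all genes, 34.7% with TBC1D3 and 34.3% at DIV7. The intervals lie apart for olfactory and vomeronasal receptors (10.7% with TBC1D3, 16.4% at DIV7) and overlap in the other lists.

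Genes with a strong gene-end peak in both lists were ranked by the lower of both folds. Ets2, an ETS transcription factor, had 3.77-fold with TBC1D3 and 4.38-fold at DIV7. Tmtc2, which adds mannose to cadherins, had 3.67-fold and 3.58-fold, and the metalloprotease gene Adamts1 4.05-fold and 3.50-fold. Dner, a Notch ligand of neurons, reached 4.50-fold on 9 fragments with TBC1D3 and 3.50-fold on 7 at DIV7, with summits 193 bp apart. At Mdga2, a regulator of neuroligins at the synapse, it was 4.51-fold on 11 fragments with TBC1D3 and 3.47-fold on 7 fragments at DIV7, with summits 1157 bp apart. Ror2, a receptor of Wnt5a, had 4.06-fold with TBC1D3 and 3.47-fold at DIV7. Adamtsl3 and Dtwd2 completed the 8, with 3.56-fold and 3.61-fold with TBC1D3 and 3.50-fold each at DIV7, and the Dtwd2 summits were 25 bp apart. Of these only Dner (q 0.0116) and Mdga2 (q 0.00383) with TBC1D3 and Ets2 (q 0.0251) at DIV7 had a q of at most 0.05.

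Of genes with no summit of the other list within 3 kb, Sox5, a transcription factor of deep-layer cortical neurons, had the highest fold with TBC1D3, of 4.95-fold on 10 fragments with a q of 0.00148, on chromosome 6 from 144781415 to 144782664. Eif5b, a GTPase of translation initiation, had 4.51-fold with a q of 0.0115. The Wnt receptor Fzd8, the beta-catenin cofactor Bcl9, the collagen IX gene Col9a2, and Art5, Ccdc6 and Cnbd2 had 4.06-fold each, on 8 fragments with a q of 0.0813. At DIV7, by the same rule, Fgl2, a fibrinogen-like protein, had 4.82-fold on 10 fragments with a q of 0.00335, on chromosome 5 from 21372618 to 21373005. Cblb, an E3 ubiquitin ligase, the centrosome gene Cep72, Jmjd1c, of the family of histone demethylases, and Zfp871 had 4.38-fold each, with a q of 0.0251. Smim14 and Ube2k, a ubiquitin-conjugating enzyme, lie head to head and share 1 peak of 4.38-fold. Slc9a3r2, a scaffold of membrane transporters, had 4.03-fold with a q of 0.0764. All of these peaks rest on 8 to 10 fragments. Sema6d, given above with the fold of Sox5, and the DIV7 peaks at the ends of Lrp12 and Mark2, given next, had a summit of the other list within 3 kb and are not in this ranking.

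Over the whole genome, the strongest peaks of 1 list lay both in and outside genes. With TBC1D3 only, a site in a gene desert of chromosome 1 from 48881515 to 48881870 had 9.91-fold on 21 fragments, and a site of chromosome 6 from 3201337 to 3201621 had 8.39-fold on 33 fragments. Sites in Lin9, a cell cycle gene, and Gsdma2, a gasdermin, had 7.13-fold and 7.06-fold. A short site of chromosome 12 from 3109883 to 3110120 stood apart, with 6420 fragments over a background of 1977, or 3.25-fold, and so did one in Chl1, a neural adhesion gene, with 3160 fragments and 3.57-fold. At DIV7 only, the highest folds were 6.13 at chromosome 9 from 23680722 to 23680971 and 5.69 at the end of Lrp12, a lipoprotein receptor, and in Mylk3, a kinase of muscle myosin. Mark2, a kinase of microtubule-associated proteins, had 5.57-fold at its end. The DIV7-only peak with the highest −log10 p lay in Spag17 on chromosome 3 and had 63 fragments, at 3.55-fold.

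The strongest shared sites lay mostly outside genes. By the lower of both folds they were chromosome 13 from 9834092 to 9834598 (6.40-fold with TBC1D3, 6.42-fold at DIV7) and chromosome 9 from 51978626 to 51979222 (5.86-fold, 7.01-fold). Next came a desert site of chromosome 18 from 85697926 to 85698321 (9.33-fold with TBC1D3, 5.76-fold at DIV7), a site in Il3ra, a cytokine receptor gene of chromosome 14 (6.77-fold, 5.69-fold), and one of chromosome 16 near Rimbp3 (6.01-fold, 5.33-fold). The tallest of all, on chromosome 2 from 98666575 to 98667323, had 41090 fragments and 4.43-fold with TBC1D3 and 33618 fragments and 3.79-fold at DIV7. The local background there was 9268 fragments with TBC1D3 and 8880 at DIV7, and the sequence of the site was not read.

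Among sites with a q of at most 0.05 in both lists the fold was mostly higher with TBC1D3. There were 163 overlapping pairs, and the TBC1D3 fold was the higher one in 135. When the pileup was set over the genome-wide background of its own list instead of the local one, it was higher with TBC1D3 in 58 pairs, with a median ratio of TBC1D3 to DIV7 of 0.884. The order of the lists at these sites therefore depends on which background is used. Local backgrounds at matching sites differed in both directions. They were 7.33 fragments with TBC1D3 and 24.6 at DIV7 on chromosome 16 from 11143906, and 34.5 and 8.33 on chromosome 7 from 145341018. For the 60 pairs with at least 100 fragments in both lists, the fold was higher with TBC1D3 in 58 and the ratio of pileups above 1 in 38, with a median ratio of 1.14. For the 103 weaker pairs it was 77 and 20, with a median ratio of 0.816.

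A cluster at the start of chromosome 9, in the first 40 kb of assembled sequence next to the centromere, was higher with TBC1D3 by both measures. All 17 pairs had the higher fold with TBC1D3 (median 6.55, against 4.16 at DIV7) and the higher pileup over background (median ratio 1.22, from 1.10 to 1.32). The peaks there were longer as well, with a median of 1471 bp with TBC1D3 and 1177 bp at DIV7. Satellite DNA next to the mouse centromeres is a classic site of ATRX, but the sequence of these peaks was not read. The 17 pairs lie in 1 stretch and are not independent sites. Being higher by both measures was not particular to this stretch. It was also seen at tall sites of chromosome 2 from 98666575 (ratio 1.29), chromosome 9 from 35305257 (1.34) and chromosome 14 from 19416874 (1.21). Of all 60 pairs with at least 100 fragments in both lists, 38 had a ratio above 1. How reads of repeats were placed there was not tested. On an unplaced scaffold that held the most peaks of this strength, the measures parted: all 21 pairs had the higher fold with TBC1D3 (median 6.23, against 3.76 at DIV7), but 14 had the higher pileup over background, with ratios from 0.520 to 1.31. Those 14 pairs were the taller ones, with 440 or more fragments with TBC1D3, and the other pairs had 101 or fewer. That scaffold had 22 TBC1D3 peaks, which covered 103697 bp, and 56 DIV7 peaks, which covered 81668 bp. The median length in the pairs was 3751 bp with TBC1D3 and 1483 bp at DIV7. The longest TBC1D3 peak, of 15953 bp, lay on chromosome 11 from 3184134 to 3200086.

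**Figure D5:**
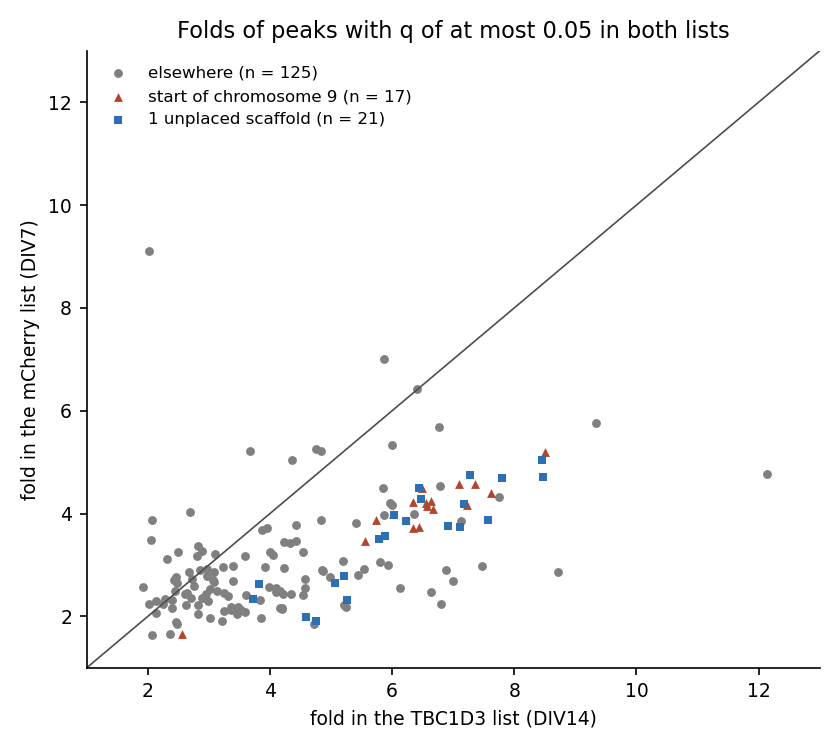
Fold of the 163 peak pairs with a q of at most 0.05 in both lists, TBC1D3 at DIV14 on the horizontal axis and mCherry at DIV7 on the vertical axis, with the cluster at the start of chromosome 9 and the unplaced scaffold marked. In 135 pairs the point lies on the TBC1D3 side of the diagonal, among them all 17 pairs of chromosome 9 and all 21 of the scaffold.

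Scaffolds held 303 TBC1D3 peaks on 35 scaffolds and 409 DIV7 peaks on 39, or 0.155% (0.138 to 0.174) and 0.197% (0.178 to 0.217) of the lists. Of 40 scaffolds with a peak 34 were in both lists. Peaks there were shared more often than elsewhere, at 34.3% with TBC1D3 and 33.7% at DIV7. Sharing was uneven between scaffolds. The unplaced scaffold described before gave 22 of the 104 shared TBC1D3 peaks and 56 of the 138 shared DIV7 peaks. An unlocalised scaffold of chromosome 5 had 13 TBC1D3 peaks and 70 DIV7 peaks, of which 3 in each list were shared. Another unplaced scaffold had 16 and 2. Both were picked after their values were seen. Among peaks with a q of at most 0.05 the order turned, with 80 on scaffolds of 376 with TBC1D3 and 91 of 476 at DIV7.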

How the data were processed

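ATRX ChIP-seq peak lists of 2 of the 4 libraries were compared, TBC1D3 at DIV14 and mCherry at DIV7, 1 library each; the input sample was not analysed here. The tools were MACS 1.4.2, Bowtie 1.3.0, ChIPseeker 1.26.2 and SAMtools 1.9, per the submitters' processing notes; settings and build were not stated there. The layout of the lists, with a q-value per peak, is not that of MACS 1.4.2, so which caller wrote them is uncertain.

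The deposited fold is a ratio of ChIP pileup to local background per peak. The deposited −log10 columns hold the p-value without correction and the q-value. The authors' score and the deposited offset of the summit in bp were used to check the lists and to place summits. A whole-number pileup and a Poisson background fitted fold and p within 0.001 for 99.99% of TBC1D3 peaks. The background, 1.22 fragments with TBC1D3 and 1.28 at DIV7, stands for the depth, since read totals were not analysed here.

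Overlap meant at least 1 bp. Gene ends were 1 kb on each side of both ends of 20661 protein-coding genes in the RefSeq table of GRCm38.p6, which gives no strand. That build was taken from the scaffold names. Promoters were 20084 RefSeq entries of 300 bases on chromosomes with an entry. Python 3.11.15, numpy 2.4.6, pandas 2.3.3 and scipy 1.17.1 were used, and the counting was tested on simulated peaks. No model could be fitted with 1 library per group, so shares carry exact (Clopper-Pearson) binomial intervals at 95%, and differences of shares normal ones, for counting error only.

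The named genes were, per class of sharing, the 8 with the highest fold (the lower fold where both lists had a peak), without predicted genes and, for the classes of 1 list, without genes that had a summit of the other list within 3 kb of either end, and up to 4 of each gene list by the same order. The members, lists and classes were chosen with earlier results of these data known. Alternatives were other overlaps, windows, p and q thresholds, a trimmed list and the sex chromosomes.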

Additional observations from a re-analysis of the deposited data

Results flagged for a closer look

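The sex chromosomes lie outside the comparison, which used chromosomes 1 to 19 and scaffolds, and they held peaks in both lists. Chromosome X had 3563 peaks with TBC1D3 and 5916 at DIV7, and chromosome Y had 108 with TBC1D3 and 232 at DIV7. As shares of all peaks of a list, chromosome X made up 1.79% with TBC1D3 and 2.76% at DIV7. The sex of the embryos in each culture is not given in the sources used here, and its part in these counts was not tested.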

How the results depend on the processing

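The share of shared peaks moved with how overlap was asked for (9.41% of TBC1D3 and 8.87% of DIV7 peaks as reported). Overlap of 50% of both peaks gave 3.76% of TBC1D3 and 3.54% of DIV7 peaks, summits within 250 bp gave 6.47% and 6.08%, a −log10 p of at least 3 in both lists gave 3.91% and 3.01%, and a q of at most 0.05 in both gave 43.4% and 41.4%. Trimming the longer list gave 8.89% of TBC1D3 peaks, and adding the sex chromosomes 8.73% of DIV7 peaks. Leaving out peaks with a pileup of 100 or more, chosen after seeing the data, moved neither share beyond its interval. The gene-end difference of 0.315 points became 0.126 with 500 bp and 1.61 at a −log10 p of at least 3. At that threshold 998 genes had a TBC1D3 summit only, 1125 a DIV7 summit only and 140 both, and both lists met at 8246 genes with 3 kb and 1198 with 500 bp. With 5 Mb the difference, TBC1D3 minus DIV7, was -0.329 points at proximal and 0.385 at distal ends. The desert difference of -0.801 points became -1.18 at 200 kb and -1.92 at a −log10 p of at least 3. The scaffold difference turned from -0.0417 points to 0.0882 at a −log10 p of at least 3 and to 2.16 at a q of at most 0.05; the cause was not tested. The other 19 values kept their direction, though not all their size: the proximal difference of -0.162 points was -0.0881 at a −log10 p of at least 3, and with 500 bp 3188 genes had a TBC1D3 summit only and 3208 a DIV7 summit only. Of 25 gene lists with unequal counts the sign turned in 5 with 3 kb and in 9 at a −log10 p of at least 3, so gaps of a few genes give no order. The receptor gap, -83 genes, was -154 with 3 kb and -18 at a −log10 p of at least 3. No paired analysis was possible because each group has 1 library, and for the same reason no replicate could be left out. Depth limits every weak peak to a few fragments.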
